A study of Homo sapiens with 6 samples.

Results

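The BCL2 family decides whether a cell opens its outer mitochondrial membrane and dies by apoptosis, and 10 of its genes were compared between CYGB-overexpressing and MOCK HCT116 cells. The members were the genes whose symbol in the deposited count table is BAX, BAK1, BID, BAD, BBC3, PMAIP1, BCL2L11, BCL2, BCL2L1 or MCL1. All 10 were found, out of 40173 genes with a symbol, and 78 of the 151453 transcripts with a gene belong to them. HCT116 is a human colorectal cancer cell line. The MOCK group (labelled wild type) had received a control lentivirus, and the CYGB group a lentivirus with the coding region of CYGB (cytoglobin, a haem protein that binds oxygen) fused to FLAG. Both were stable lines after puromycin selection, both were at passages 15 to 20, and the labels name no drug treatment. Each group had 3 libraries of paired-end RNA-seq. Whether the 3 libraries came from separate transductions is not given in the sources used here, so that p-values measure the spread between these libraries.

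In this family, the effectors BAX and BAK1 form pores in the outer mitochondrial membrane, through which cytochrome c reaches the cytosol and activates caspases. BCL2, BCL2L1 (BCL-X) and MCL1 hold the effectors and their activators in check. The BH3-only proteins BID, BAD, BBC3 (PUMA), PMAIP1 (NOXA) and BCL2L11 (BIM) carry a short BH3 helix that binds the guardians or activates the effectors. BAX, BBC3 and PMAIP1 are known p53 targets, and p53 protein was part of the question asked of these cells.

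The libraries held 58138393 to 66035266 counts, of which 18.6 to 19.5% lay on 21225 assembled transcripts without a gene or position. These were left out, and reads of a member that were assigned to them cannot be seen. The transgene was checked first. CYGB had counts of 10, 28 and 34 in MOCK against 34935, 27681 and 32333 in CYGB. Of 12 colon epithelial markers, 7 had a mean CPM (counts scaled per library) of at least 1, namely CDH1, KRT18, EPCAM, CLDN3, CDX2, KRT8 and KRT19. VIL1 (0.23 to 0.79 CPM per library), GPA33 (0.41 to 0.75), CEACAM5 (0 to 0.22) and CLDN4 (0.13 to 1.64) had a lower mean, and CDX1 had no value. The whole list summed to 4114 to 4605 CPM in MOCK and 4130 to 4538 CPM in CYGB. Among markers of other cell types, 1 of 6 of fibroblasts (COL1A1), 1 of 5 of blood (CD68) and 1 of 3 of endothelium (VWF) reached that level. The sums were 45.4 to 51.0, 19.6 to 21.2 and 1.08 to 1.38 CPM in MOCK and 48.3 to 54.1, 10.3 to 25.2 and 0.556 to 1.92 CPM in CYGB. Of the defining markers of blood, PTPRC and CD3E were below 0.3 CPM in every library.

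The transcripts of each gene were summed, and the sums were scaled by edgeR's TMM method to CPM and compared by edgeR's quasi-likelihood method, fitted on all 19987 genes that passed its filter. Calls were made at the limits in the study's methods, an unadjusted p of at most 0.01 with a ratio of at least 2 or at most 0.5, or at an adjusted p under 0.05. The first limit was passed by 0.565% of all genes (0.28% higher and 0.285% lower in CYGB) and the other by 0.055%. All 10 members passed the expression filter. By edgeR's quasi-likelihood test 0 of the 10 passed either threshold, and 2 had an unadjusted p under 0.05 (BCL2L1 and MCL1), where 4.54% of all genes had such a p. With edgeR's exact test 1 member, BCL2L1, had a p under 0.05, against 3.92% of all genes, and 0 passed the first limit, against 1.28%. DESeq2 placed 1 member, BCL2L1, past the first limit, as it did 0.966% of the 34465 genes to which it gave a p, and 0 at an adjusted p under 0.05. In bulk RNA a change in the number of cells that express a gene and in the RNA per cell cannot be told apart.

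The members most abundant per length were MCL1 and BAX. To compare genes, counts were divided by transcript length and scaled to equal library totals (TPM). In MOCK, MCL1 had 171 ± 6.68 TPM and BAX 144 ± 9.58 TPM (SD, n = 3), and the libraries of these genes did not overlap. PMAIP1 at 83.9 ± 23.5 TPM and BAD at 80.8 ± 9.57 TPM overlapped with each other. Next came BID at 44.4 ± 4.37 TPM and BAK1 at 38.5 ± 4.92 TPM, which overlapped, and BCL2L1 at 26.5 ± 2.65 TPM. BCL2L11 at 21.7 ± 1.81 TPM and BBC3 at 20.7 ± 10.4 TPM overlapped. BCL2, the founding member, was lowest at 3.42 ± 0.406 TPM, below every MOCK library of the other members. In CYGB, MCL1 had 145 ± 15.5 TPM and BAX 138 ± 6.61 TPM, now with overlapping libraries, and BCL2L1 ranked 5 among the 10 members by its mean, at 47.8 ± 16.7 TPM, where it overlapped with BID at 45.9 ± 4.79 TPM. The other members kept their order in CYGB.

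**Figure D1:**
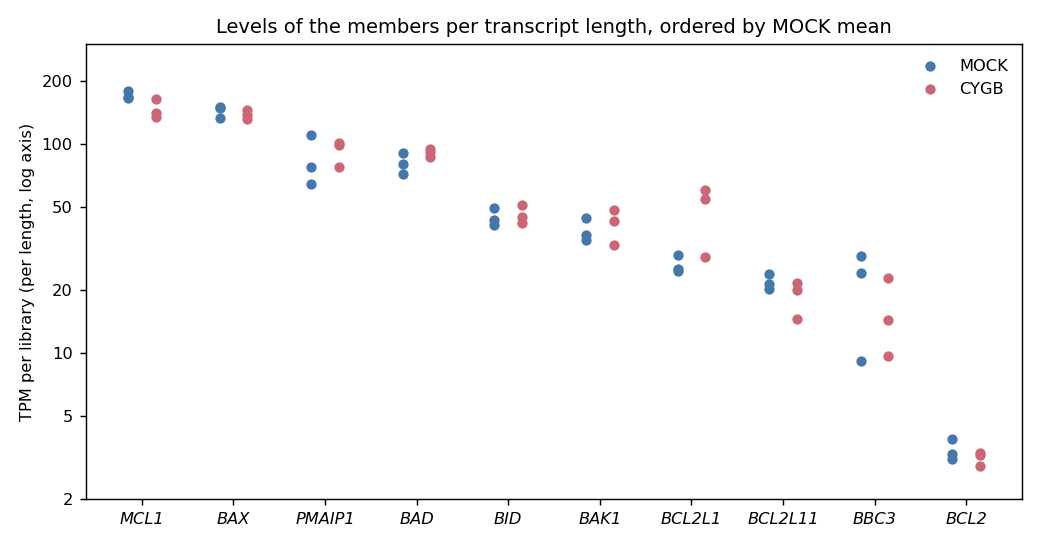
Level of each member in TPM (log axis) in the 3 MOCK and 3 CYGB libraries, 1 point per library, ordered by the MOCK mean. MCL1 and BAX lie highest and BCL2 lowest in both groups, and for BCL2L1 2 CYGB libraries lie above the MOCK libraries while the other lies among them.

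Neither effector gene moved beyond its spread. BAX (ENSG00000087088, GRCh38 chromosome 19, 48954815 to 48961798 on the plus strand) had 73.7, 67.0 and 70.7 CPM in MOCK replicates 1 to 3 and 70.9, 70.5 and 71.2 CPM in CYGB replicates 1 to 3. The CYGB libraries all lay inside the MOCK range. CYGB over MOCK gave a log2 fold change of 0.0082 with a standard error of 0.08 and an adjusted p of 0.998 (edgeR quasi-likelihood), and the 95% confidence interval of the ratio ran from 0.879 to 1.15. BAK1 (ENSG00000030110, chromosome 6 from 33572547 to 33580293, minus strand) had 41.4, 38.2 and 48.3 CPM in MOCK against 52.5, 34.7 and 48.0 in CYGB. Its lowest and its highest library were both CYGB libraries. The log2 fold change was 0.08 (standard error 0.18), with a ratio between 0.773 and 1.44. The processed copy BAK1P1 held 13 to 28 counts per library, against 1763 to 2652 counts for BAK1.

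The 5 BH3-only genes overlapped between the groups in every case. BID (ENSG00000015475, chromosome 22 from 17734138 to 17774770), which links death receptors to mitochondria once cut by caspase 8, had 47.6, 52.8 and 44.7 CPM in MOCK against 52.2, 44.3 and 49.3 in CYGB. BAD (ENSG00000002330, chromosome 11 from 64269830 to 64284704), which binds BCL2 and BCL-X unless survival kinases phosphorylate it, had 42.9, 31.7 and 36.9 CPM in MOCK against 41.7, 38.5 and 44.0 in CYGB. Their log2 fold changes were 0.0066 (standard error 0.11) and 0.16 (standard error 0.14). For BID the 95% confidence interval of the ratio was 0.828 to 1.22 and for BAD 0.879 to 1.416. GPR137 on the opposite strand shares 23.7% of the exonic bases of BAD and had 375 to 568 counts per library.

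PMAIP1 and BBC3 differed more between libraries of 1 group than between the groups. PMAIP1 (ENSG00000141682, chromosome 18 from 59899948 to 59904306), whose product binds MCL1 in particular, had 79.0, 110 and 63.8 CPM in MOCK against 99.5, 73.6 and 101 in CYGB. BBC3 (ENSG00000105327, chromosome 19 from 47220822 to 47232766), whose product binds all the guardians, had 7.94, 21.1 and 23.8 CPM in MOCK against 7.92, 11.8 and 18.4 in CYGB. The lowest library of each group was its replicate 1, and the highest BBC3 library exceeded the lowest by 3.00 times within MOCK and by 2.32 times within CYGB. Among the 9947 genes averaging 10 CPM or more, 13.4% reached a ratio of 2 between their highest and lowest MOCK library and 13.5% between their CYGB libraries. The log2 fold change of BBC3 was -0.47 (standard error 0.49) with a ratio between 0.317 and 1.63, and that of PMAIP1 was 0.11 (standard error 0.23) with a ratio between 0.732 and 1.599. BCL2L11 (ENSG00000153094, chromosome 2 from 111119378 to 111168447) had 51.1, 48.3 and 53.8 CPM in MOCK against 33.5, 50.3 and 49.6 in CYGB. Only CYGB replicate 1 was low, and the log2 fold change was -0.20 (standard error 0.18), with a ratio between 0.648 and 1.17. By edgeR's quasi-likelihood test the BH3-only genes had adjusted p-values of 0.963 to 0.999.

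**Figure D2:**
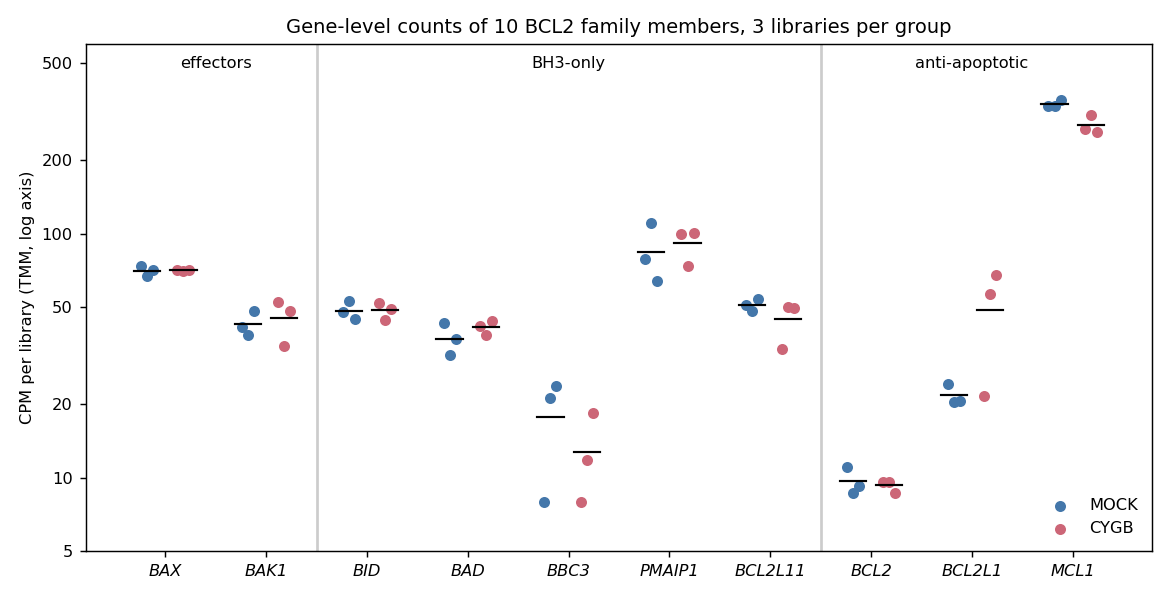
Gene-level CPM (log axis) of the 10 members, grouped by role, with 1 point per library and a black line at each group mean. MCL1 is the member whose groups do not overlap, with 261 to 305 CPM in CYGB and 333 to 352 CPM in MOCK.

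MCL1, the most abundant guardian, was lower in each CYGB library than in any MOCK library. MCL1 (ENSG00000143384, chromosome 1 from 150574551 to 150579738, minus strand) encodes a short-lived protein that binds BAK1, PMAIP1 and BCL2L11. It had 334, 333 and 352 CPM in MOCK against 269, 305 and 261 in CYGB. The means were 340 ± 10.9 CPM and 279 ± 23.6 CPM (SD, n = 3 each). The ratio of CYGB to MOCK was 0.820, with a 95% confidence interval from 0.714 to 0.942, which does not reach the ratio of 0.5 of the methods. The log2 fold change was -0.29 (standard error 0.08), with an unadjusted p of 0.0128 and an adjusted p of 0.963 by edgeR's quasi-likelihood test. The p ranked 223 among the 19987 genes tested. Of the 10 members, 1 did not overlap between groups, against 11% of all genes, a similar share, and 5.31% of all genes did not overlap and were lower, and 5.72% higher. With any 1 library left out the log2 fold change stayed between -0.36 and -0.24. The p depended on the test, since edgeR's exact test gave an unadjusted p of 0.107.

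MCL1 transcripts are shown because 1 exon separates the guarding form from a short form that is known to promote death. In GENCODE 29, MCL1-202 (ENST00000369026) contains 248 coding bases, in capitals below, that MCL1-201 (ENST00000307940) skips. They lie at chr1:150578244-150578491 on the minus strand of GRCh38, and 20 coding bases are shown on each side.
MCL1-202: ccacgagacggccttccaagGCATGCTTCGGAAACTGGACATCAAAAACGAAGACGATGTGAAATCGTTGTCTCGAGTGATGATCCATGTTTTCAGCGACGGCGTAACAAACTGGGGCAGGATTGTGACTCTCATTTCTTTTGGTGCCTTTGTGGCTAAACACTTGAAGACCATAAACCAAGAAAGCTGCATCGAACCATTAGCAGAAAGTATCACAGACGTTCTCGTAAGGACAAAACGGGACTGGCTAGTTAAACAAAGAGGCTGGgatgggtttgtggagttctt
MCL1-201: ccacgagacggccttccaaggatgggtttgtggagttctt
MCL1-202 had counts of 15462, 17193 and 17936 in MOCK against 13287, 15114 and 13305 in CYGB. It made up 97.1 to 99.0% of the counts of the gene, so that the lower gene count is that of this transcript. The skipping transcript MCL1-201 had counts of 111, 31 and 0 in MOCK against 101, 106 and 153 in CYGB, and the groups overlapped.

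BCL2L1 had the largest difference of the 10 members, and it came from 2 of the 3 CYGB libraries. BCL2L1 (ENSG00000171552, chromosome 20 from 31664452 to 31723989, minus strand) had 24.2, 20.4 and 20.6 CPM in MOCK against 21.5, 56.8 and 68.0 in CYGB. CYGB replicate 1 lay inside the MOCK range, and CYGB replicates 2 and 3 lay above all MOCK libraries. The means were 21.8 ± 2.13 CPM and 48.8 ± 24.3 CPM (SD, n = 3 each), a ratio of 2.24 with a 95% confidence interval from 1.12 to 4.47. The log2 fold change was 1.16 (standard error 0.41), with an unadjusted p of 0.0287 and an adjusted p of 0.963 by edgeR's quasi-likelihood test. Leaving out any library other than CYGB replicate 1 gave log2 fold changes of 0.85 to 1.25, with unadjusted p-values of 0.0559 to 0.0938, and the replicate block gave 1.03 with an unadjusted p of 0.0841. Without CYGB replicate 1, the library at the MOCK level, the log2 fold change was 1.52 (unadjusted p = 0.000142), which passes the threshold of the methods as 0.643% of all genes did in that fit, with an adjusted p of 0.148. DESeq2 on all libraries gave an unadjusted p of 0.00556, also past that threshold, and an adjusted p of 0.422.

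**Figure D3:**
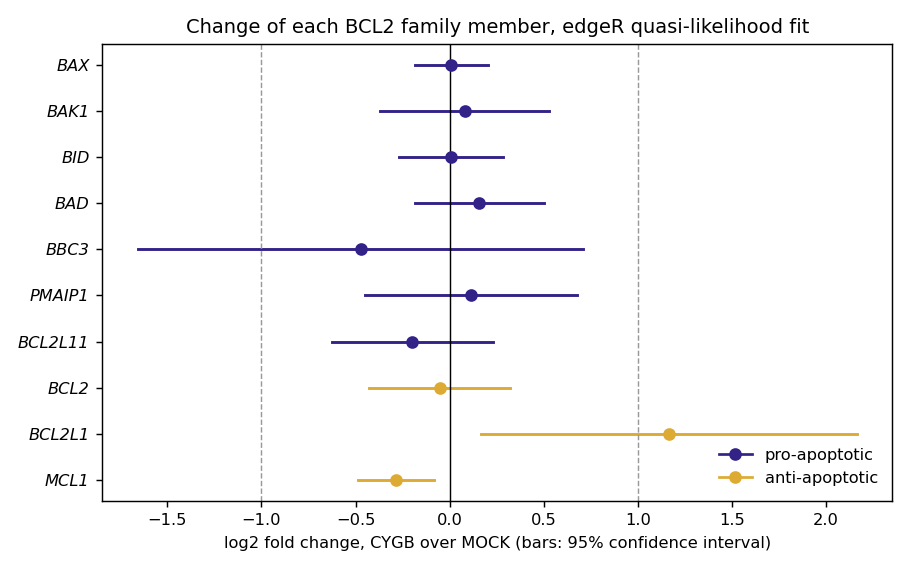
Log2 fold change of each member, CYGB over MOCK, as points with 95% confidence intervals, for 7 pro-apoptotic and 3 anti-apoptotic genes. Dashed lines mark a ratio of 2 and of 0.5. The intervals of MCL1 (below 0) and BCL2L1 (above 0) exclude 0, and those of the other 8 members include it.

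The coding forms of BCL2L1 are printed because they have opposite known activities. The long form, BCL-XL, guards against apoptosis and the short form, BCL-XS, promotes it, and they differ by the choice of a splice site within 1 exon. BCL2L1-203 (ENST00000376062) contains 189 coding bases, in capitals, that are absent from BCL2L1-202 (ENST00000376055). These lie at chr20:31721655-31721843 on the minus strand of GRCh38, and their number is a multiple of 3.
BCL2L1-203: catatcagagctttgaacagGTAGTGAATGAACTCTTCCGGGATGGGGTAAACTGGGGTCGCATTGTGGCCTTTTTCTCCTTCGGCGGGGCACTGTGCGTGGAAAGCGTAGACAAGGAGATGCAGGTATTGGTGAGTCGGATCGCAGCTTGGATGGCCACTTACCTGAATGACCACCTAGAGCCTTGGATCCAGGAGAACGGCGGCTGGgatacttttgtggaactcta
BCL2L1-202: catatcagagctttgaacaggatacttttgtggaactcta
The annotated short form, BCL2L1-202, had counts of 613, 634 and 619 in MOCK against 522, 1000 and 1410 in CYGB. BCL2L1-203 had counts of 187, 142 and 119 in MOCK against 152, 1065 and 1157 in CYGB. BCL2L1-201 (ENST00000307677), with the same coding length as BCL2L1-203, had counts of 1, 23 and 53 in MOCK against 18, 525 and 702 in CYGB. All 3 transcripts were therefore higher in CYGB replicates 2 and 3 than in the other 4 libraries. Of the counts on these 3 transcripts, the long forms held 23.5, 20.7 and 21.7% in MOCK and 24.6, 61.4 and 56.9% in CYGB. The remaining 6 transcripts of the gene, which do not reach the shared 3′ end, summed to counts of 343, 281 and 271 in MOCK against 396, 299 and 302 in CYGB, so that the difference was carried by the 3 that do. In the fit per transcript, BCL2L1-203 differed by 2.38 on the log2 scale (standard error 0.78, unadjusted p = 0.0236, adjusted p = 1.00, edgeR quasi-likelihood). Of the 150-base windows of BCL2L1-202, 6.58% occur in no other transcript of the gene, against 10.2% for BCL2L1-203 and 0% for BCL2L1-201, and how reads were divided among isoforms is not stated.

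Reads of BCL2L1 also meet an antisense gene. ABALON (ENSG00000281376, chromosome 20 from 31721507 to 31723409, plus strand) shares 43.0% of the exonic bases of BCL2L1, and since the sources used here do not state a stranded library or count, reads of the 2 genes cannot be told apart there. ABALON had counts of 19, 2234 and 6 in MOCK against 1610, 2823 and 3190 in CYGB. Its highest counts were in CYGB replicates 2 and 3, the libraries in which BCL2L1 was high. It was also high in CYGB replicate 1 and MOCK replicate 2, in which BCL2L1 was not. The sum of both genes, computed only once the data had been seen, was 24.6, 62.7 and 20.7 CPM in MOCK against 53.4, 112 and 129 in CYGB. Its log2 fold change was 1.45 (standard error 0.53, unadjusted p = 0.0332, adjusted p = 0.963, edgeR quasi-likelihood). The 189 bases that separate the long from the short form of BCL2L1, at chr20:31721655-31721843, lie within the span of ABALON. BCL2L1-203 shares 943 bases with exons of ABALON and BCL2L1-202 shares 748. The percentages given above for the long forms may therefore include ABALON reads, and they do not by themselves show a change in splicing. The part of ABALON in the BCL2L1 counts and in these percentages was not tested.

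BCL2 itself showed no difference beyond its spread. BCL2 (ENSG00000171791, chromosome 18 from 63123346 to 63320128, minus strand) had 11.1, 8.67 and 9.19 CPM in MOCK against 9.62, 9.60 and 8.62 in CYGB. The log2 fold change was -0.054 (standard error 0.15), with a ratio between 0.742 and 1.25. Its transcript BCL2-201 (ENST00000333681) had counts of 98, 84 and 80 in MOCK against 40, 44 and 52 in CYGB, without overlap (log2 fold change -0.96, standard error 0.29, unadjusted p = 0.0188, adjusted p = 1.00, edgeR quasi-likelihood). The most abundant transcript, BCL2-202 (ENST00000398117), had counts of 286, 248 and 262 in MOCK against 272, 283 and 268 in CYGB. Both encode the same length of protein, and only 4.87% of the windows of BCL2-201 are its own. BCL2-203 (ENST00000589955) had counts of 138, 126 and 131 in MOCK against 174, 161 and 133 in CYGB, and the groups overlapped.

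Set against each other, pro-apoptotic and anti-apoptotic members had medians close to that of all genes. The median log2 fold change was 0.0082 for the 7 pro-apoptotic genes, 5 of them above 0, and -0.054 for the 3 anti-apoptotic genes, 1 of them above 0. The median of all 19987 genes was -0.0070, and 48.8% of them were above 0. In the ratios below, the TPM of BCL2L1 sums all its transcripts, so that it is not the level of the guarding form alone. The annotated short form, BCL2L1-202, held 53.6 to 58.7% of the BCL2L1 counts in MOCK and 34.6 to 48.0% in CYGB. The summed TPM of BAX and BAK1 over that of the 3 guardians was 0.938, 0.854 and 0.929 in MOCK and 1.08, 0.805 and 0.890 in CYGB, and the groups overlapped. The 5 BH3-only genes over the guardians gave 1.21, 1.402 and 1.15 in MOCK and 1.56, 1.09 and 1.43 in CYGB, with overlap. PMAIP1 over MCL1, a ligand and its main partner, was 0.465, 0.655 and 0.361 in MOCK and 0.723, 0.475 and 0.742 in CYGB, also with overlap. The ratio of BAX to BCL2L1 was 5.10, 5.27 and 5.98 in MOCK and 4.75, 2.66 and 2.20 in CYGB, lower in each CYGB library than in any MOCK library. This held only in TPM, which depends on how reads were divided among isoforms. By CPM, CYGB replicate 1 (BAX 70.9, BCL2L1 21.5) had a higher ratio than MOCK replicate 1 (73.7 and 24.2), so that the groups overlapped. BAX over BCL2 was 38.9, 42.8 and 45.2 in MOCK and 41.9, 43.6 and 46.1 in CYGB, with overlap. MCL1 over BCL2L1 was 5.63, 6.66 and 7.23 in MOCK and 4.85, 2.99 and 2.23 in CYGB, lower in each CYGB library than in any MOCK library. A higher BCL2L1 lowers this ratio by construction, as in CYGB replicates 2 and 3. In CYGB replicate 1, BCL2L1 lay in the MOCK range (28.8 TPM) and MCL1 was lower (140 TPM, against 166 to 179 TPM in MOCK). These ratios were chosen as descriptions and carry no test.

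At the level of transcripts, 51 of the 78 transcripts of the members passed the expression filter. By edgeR's quasi-likelihood test 0 of them passed the threshold of the methods or had an adjusted p under 0.05, against 1.02% (0.54% higher, 0.482% lower in CYGB) and 0.015% of all 66609 transcripts tested, and 6 had an unadjusted p under 0.05, against 3.78%. DESeq2 placed 4 past the threshold of the methods (BID-201, BAX-212, BCL2L1-201 and BCL2L1-203), as it did 1.91% of the 128084 transcripts to which it gave a p. With edgeR's exact test 3 passed (the same without BCL2L1-201), against 1.66% of all transcripts. Groups did not overlap for 7 of the 51, against 10.4% of all transcripts, with 6 lower (5.25% of all) and 1 higher (5.19% of all) in CYGB. Of the 51, 28 had a log2 fold change above 0, against 49.4% of all transcripts. BAX-212 (ENST00000515540), annotated as subject to nonsense-mediated decay, had counts of 73, 62 and 41 in MOCK against 16, 6 and 21 in CYGB, and it held at most 2.10% of the BAX counts. BID-201 (ENST00000317361) had counts of 109, 118 and 57 in MOCK against 8, 38 and 12 in CYGB. The coding transcripts that make up most of the BAX counts, BAX-201 (ENST00000293288) and BAX-202 (ENST00000345358), held 31.2 to 43.2% and 27.7 to 34.4% per library, and the retained intron BAX-207 (ENST00000502487) had counts of 757, 483 and 457 in MOCK against 566, 552 and 663 in CYGB. BID was mostly BID-215 (ENST00000622694), with counts of 1236, 1464 and 1246 in MOCK against 1209, 1214 and 1698 in CYGB, and BID-203 (ENST00000399765), with 646, 1054 and 555 against 1251, 506 and 712. For PMAIP1, BAK1 and BAD a single transcript (PMAIP1-202, BAK1-202 and BAD-201) held at least 98.5, 95.1 and 86.9% of the counts in each library.

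Transcripts of BCL2L11 are shown because their shares changed more between libraries than those of any other member, counting transcripts with at least 20% of the gene count in a library. The gene itself ranged from 33.5 to 53.8 CPM. BCL2L11-206 (ENST00000393256) contains 104 coding bases that BCL2L11-223 (ENST00000622612) skips, at chr2:111150044-111150147 on the plus strand, and these include the codons of the BH3 helix. It also contains 180 coding bases that BCL2L11-220 (ENST00000620862) lacks, at chr2:111123870-111124049. These are not the whole difference, since the annotated coding length is 594 bases in BCL2L11-206 and 327 in BCL2L11-220. The 2 segments named here are in capitals.
BCL2L11-206 around the first segment: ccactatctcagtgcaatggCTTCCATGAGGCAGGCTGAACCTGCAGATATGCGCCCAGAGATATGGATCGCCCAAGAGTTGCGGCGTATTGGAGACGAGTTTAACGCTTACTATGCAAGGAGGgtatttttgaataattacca
BCL2L11-223: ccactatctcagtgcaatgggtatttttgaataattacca
BCL2L11-206 around the other segment: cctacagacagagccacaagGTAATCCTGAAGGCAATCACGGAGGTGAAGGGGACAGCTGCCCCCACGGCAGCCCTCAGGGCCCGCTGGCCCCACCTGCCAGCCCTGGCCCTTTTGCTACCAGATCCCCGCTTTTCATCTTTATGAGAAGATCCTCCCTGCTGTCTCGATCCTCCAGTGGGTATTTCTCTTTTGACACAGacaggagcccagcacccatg
BCL2L11-220: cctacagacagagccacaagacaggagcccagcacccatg
BCL2L11-206 had counts of 1068, 1716 and 313 in MOCK against 154, 2422 and 625 in CYGB. BCL2L11-223 had counts of 380, 248 and 1613 in MOCK against 349, 16 and 1537 in CYGB. ENST00000621302 had counts of 533, 322 and 82 in MOCK against 831, 51 and 275 in CYGB. BCL2L11-220 had counts of 351, 193 and 612 in MOCK against 268, 8 and 97 in CYGB. BCL2L11-206 thus ranged from 9.09 to 94.8% of the gene within CYGB. At most 2.99% of the 150-base windows of these 4 transcripts are specific to 1 of them, and the groups overlapped for all 4. BBC3 behaved alike, with BBC3-202 (ENST00000341983) at counts of 119, 329 and 726 in MOCK against 181, 262 and 724 in CYGB, and BBC3-203 (ENST00000439096) at counts of 84, 363 and 0 in MOCK against 1, 20 and 0 in CYGB.

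**Figure D4:**
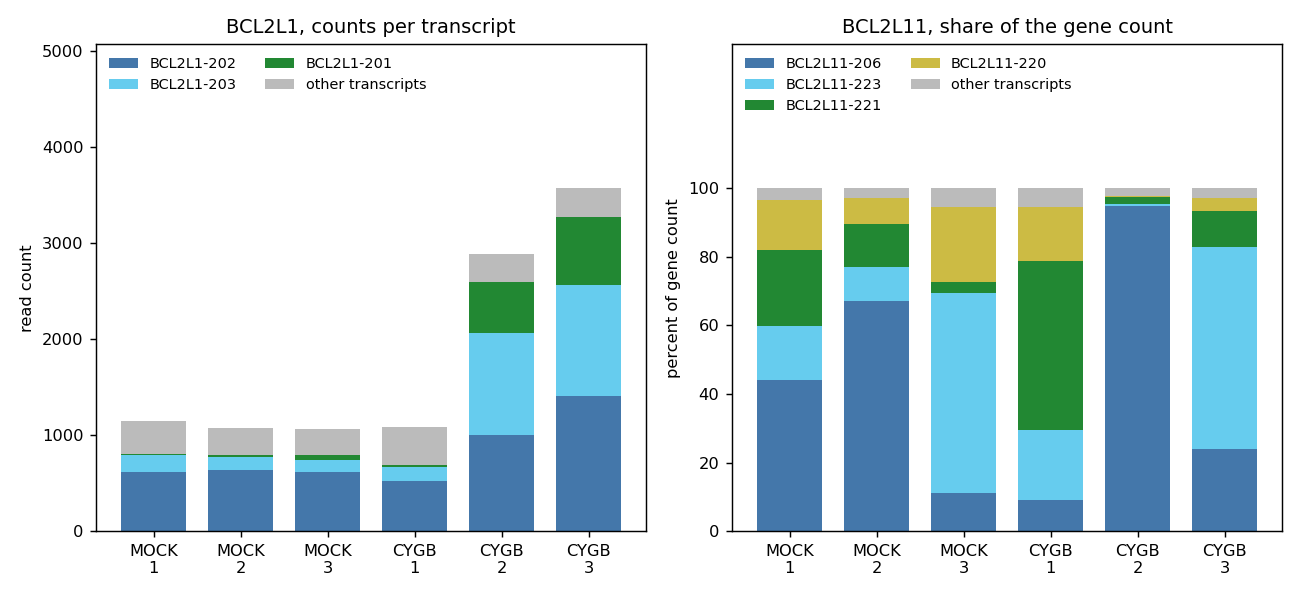
Transcripts of BCL2L1 as stacked read counts and of BCL2L11 as stacked percent of the gene count, 1 bar per library. The BCL2L1 bars of CYGB replicates 2 and 3 reach 2889 and 3571 counts against 1062 to 1144 in the other libraries, and the share of BCL2L11-206 runs from 9.09 to 94.8%.

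Around the 10 members, other genes of the family and of the death pathways were counted by the same fit. Of 17 other family genes 13 were tested, 7 above and 6 below 0, with a median log2 fold change of 0.029. By edgeR's quasi-likelihood test 0 of the 13 passed either threshold and 1, BCL2L12, had an unadjusted p under 0.05, against 4.54% of all genes. BCL2L12 averaged 72.6 CPM in MOCK against 84.5 in CYGB (log2 fold change 0.22, standard error 0.08, adjusted p = 0.963, edgeR quasi-likelihood), and BIK, a BH3-only protein of the endoplasmic reticulum, had 23.4 and 25.9 CPM (log2 fold change 0.15, standard error 0.11). These were the 2 of the 13 that did not overlap between groups, against 11% of all genes. The largest negative values were those of BMF, another BH3-only gene (-0.44), and of the guardian BCL2L2 (-0.22), both with standard errors above 1. DESeq2 alone gave 1 gene of this list an adjusted p under 0.05, the readthrough gene BCL2L2-PABPN1 (log2 fold change 5.40, adjusted p = 0.00233). The share of all genes at that limit was not counted. With all libraries this gene did not pass edgeR's expression filter, since too few of them reached the minimum count. It passed that filter with CYGB replicate 3 left out.

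For the caspases, death receptors and mitochondrial proteins, 34 of 35 symbols were tested as 35 gene identifiers, 21 above and 14 below 0, with a median log2 fold change of 0.051. The threshold of the methods was passed by 1 lower and 1 higher gene, against 0.285% lower and 0.28% higher of all genes. The higher one is an identifier of DIABLO with counts near 0 in MOCK. Groups did not overlap for 5 of the 35, against 11% of all genes. RIPK1, a kinase of death receptor signalling, fell from 2256, 1864 and 2599 counts (MOCK) to 1023, 999 and 543 (CYGB) (log2 fold change -1.41, standard error 0.30, unadjusted p = 0.00297, adjusted p = 0.963, edgeR quasi-likelihood). This call was lost without MOCK replicate 1 or MOCK replicate 3 and with the replicate block, where the log2 fold change was -1.45, and it lay between -1.57 and -1.15 with a library left out. The adjusted p of RIPK1 was 0.00555 with DESeq2 and 0.0394 with edgeR's exact test. DIABLO, which releases caspases from their inhibitors, is listed under 2 identifiers. ENSG00000284934 rose from 2, 1 and 3 counts to 15, 222 and 34 counts (log2 fold change 5.40, unadjusted p = 0.00596, adjusted p = 0.963, edgeR quasi-likelihood), and lost this call without MOCK replicate 1, 2 or 3 and with the replicate block. The adjusted p of this identifier was 0.000926 with DESeq2 and 0.0163 with edgeR's exact test. Its MOCK libraries had at most 0.0583 CPM, so that it passed edgeR's expression filter only through its CYGB libraries. Its call is therefore no support for a difference. The main gene, ENSG00000184047, had counts of 1476, 2186 and 1698 in MOCK against 2543, 2361 and 2772 in CYGB (log2 fold change 0.50, standard error 0.14, unadjusted p = 0.0109), without overlap, and the division of reads between the identifiers is uncertain. PPIF, the mitochondrial cyclophilin, differed by 0.97 on the log2 scale (standard error 0.46). With a library left out it ranged from 0.69 to 1.56 and passed the threshold of the methods only without MOCK replicate 3. HUWE1, a ligase that marks MCL1 for destruction, differed by -0.43 (standard error 0.30), which rested on MOCK replicate 3 and was -0.0037 without it.

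Of the 23 genes on a list of p53 targets outside the family, 12 lay above and 11 below 0, with a median log2 fold change of 0.0071. By edgeR's quasi-likelihood test 0 of the 23 passed either threshold or had an unadjusted p under 0.05, and DESeq2 and edgeR's exact test also called 0. CDKN1A, the cell cycle inhibitor p21, had counts of 11881, 29932 and 11904 in MOCK against 25650, 29476 and 34453 in CYGB (log2 fold change 0.73, standard error 0.36). Its MOCK replicate 2 lay in the CYGB range, and without that library the log2 fold change was 1.27 with an unadjusted p of 0.000204, past the threshold of the methods, and an adjusted p of 0.179 by edgeR's quasi-likelihood test. With MOCK replicate 1 or 3 left out instead, the log2 fold change was 0.54 and 0.51, not past the threshold. MDM2, which removes p53, had counts of 15015, 1144 and 1074 in MOCK against 969, 1077 and 1211 in CYGB, so that its log2 fold change of -2.51 rested on MOCK replicate 1 and was -0.0089 without it. CCNG1 (log2 fold change 1.32) had 7415 counts in CYGB replicate 1 and 1269 to 2297 counts elsewhere, and its log2 fold change was 0.33 without that library. PLK3 differed by -0.72 on the log2 scale (standard error 0.34). The p53 targets within the family, BAX, BBC3 and PMAIP1, had the values given above, of 0.0082, -0.47 and 0.11.

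**Figure D5:**
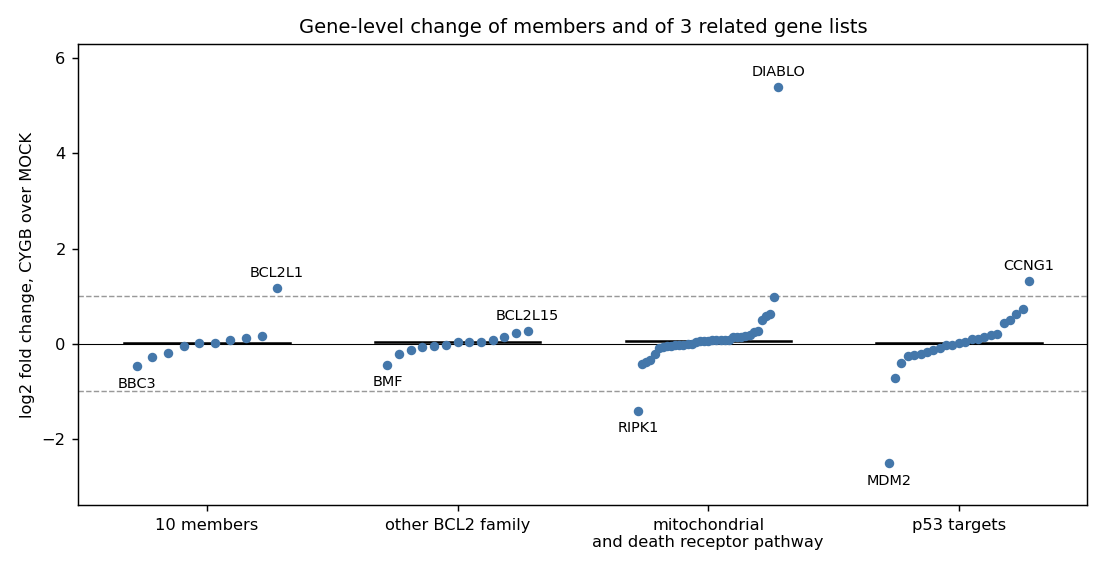
Gene-level log2 fold changes of the 10 members and of 3 lists (13, 35 and 23 genes tested), 1 point per gene in rising order, with a black line at each median and dashed lines at a ratio of 2 and of 0.5. The medians lie between 0.0071 and 0.051. The extremes are named, and the DIABLO point is the identifier ENSG00000284934.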

How the data were processed

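RNA-seq of 3 MOCK and 3 CYGB libraries of HCT116 cells was analysed. Raw read counts for each transcript, not normalized, were deposited by the authors as a single table. The submitters' processing notes name HISAT2 and DESeq2, without a role, and the build hg19. However, 99.6% of the 151393 transcripts found in GENCODE 29 share their position with it, and GRCh38 coordinates are therefore given. The counting tool and the handling of isoforms are not given in the sources used here.

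Counts were summed per gene, filtered with filterByExpr (minimum count 10), scaled with TMM factors and passed to glmQLFit, then glmQLFTest, of edgeR 4.0.16 (R 4.3.3), CYGB against MOCK, with Benjamini-Hochberg adjustment over all genes. The same was run per transcript. DESeq2 1.42.0 was an alternative. TPM used GENCODE 29 transcript lengths and left out transcripts absent there. Isoform sequences came from the GENCODE 29 transcripts, not from reads. Figures were drawn with matplotlib 3.10.9. The steps were tested on simulated counts.

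The members, lists and rules were chosen with earlier results of these data known. Named were all members, list genes past a threshold, the 2 largest rises and falls per list at a mean of at least 1 CPM, and, of member transcripts, the most abundant and those with at least 20% of the gene count. BAX-212, BID-201, BCL2-201, BCL2L1-201, MCL1-201 and BCL2L2-PABPN1 were named after their values were seen. Alternatives were other size factors, DESeq2, edgeR's exact test, 2 other filters, a replicate block, leaving out each library, the rows without a gene, and the most abundant transcript. Isoform shares, TPM and their ratios were not tested. Libraries differed from each other by more than counting error, so that the spread between libraries, and not the total count alone, sets the precision.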

Additional observations from a re-analysis of the deposited data

How the results depend on the processing

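The direction of MCL1, BCL2L1, BAD and BBC3 held under all alternatives run, and none of the 10 members had an adjusted p under 0.05 under any. With 1 library left out, the log2 fold change ranged from -0.046 to 0.23 for BAK1, -0.027 to 0.041 for BAX, -0.12 to 0.055 for BCL2, -0.049 to 0.075 for BID and -0.053 to 0.36 for PMAIP1, each with a change of sign. On the most abundant transcript, BCL2 had 0.021, BCL2L11 0.033, BCL2L1 0.62 and BBC3 -0.02. BCL2L2 ranged from -2.27 to 0.34 and BMF from -2.87 to 0.37.

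The number of members past the threshold of the methods was 0, and 1 (BCL2L1) with DESeq2 and without CYGB replicate 1 (range 0 to 1 with a library left out). Among member transcripts it was 0, but DESeq2 gave 4, the exact test 3, 1 with the replicate block (BCL2L1-201) and 0 to 1 with a library left out. Of the pro-apoptotic genes, 3 to 5 lay above 0 with a library left out, fewest (3 genes) without MOCK replicate 3 or CYGB replicate 1, and of the anti-apoptotic genes 1 to 2 did, the latter without MOCK replicate 1. In the list of the death pathways, 2 genes passed the threshold, but 1 at a mean of at least 50 counts, 0 with the replicate block and 0 to 2 with a library left out. An adjusted p under 0.05 was reached by 2 in DESeq2 and by 2 in edgeR's exact test. The share of all genes at that limit was not counted for either test, so that these counts cannot be read as more than the background. Of the other family genes 1 passed with DESeq2 (adjusted p under 0.05 for 1), 1 without a filter and 0 to 1 with a library left out, each time BCL2L2-PABPN1, and of the p53 targets 0 to 1 (CDKN1A). For all of these the cause was not tested. Shares of all genes or transcripts past the threshold of the methods are given above for the main fit, DESeq2 and the exact test. For genes the share without CYGB replicate 1 is given too. Under the other alternatives these shares were not counted, so that the counts there have no background to be read against.

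Deviations of libraries that share a replicate number correlated by 0.016, 0.0049 and 0.025. Those of libraries with different numbers correlated by -0.020 to 0.0045. Correlations this small cannot show whether the numbers mark a pairing, and this was not tested. Under the replicate block, BCL2L1 had a log2 fold change of 1.03 and MCL1 of -0.29. BBC3 had -0.41 there, with a standard error of 0.21 against 0.49 without the block. The interval of the BBC3 ratio, 0.317 to 1.63, was wider than that of BCL2, 0.742 to 1.25, which had fewer counts in most libraries, and BBC3 varied by 3.00 and 2.32 times within the groups.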

Other observations

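Several genes around the members had 1 library far from the others of its group, in MOCK as in CYGB. BMF had counts of 15, 290 and 490 in MOCK against 27, 503 and 45 in CYGB. BCL2L2 had counts of 1824, 557 and 1802 in MOCK against 67, 3085 and 539 in CYGB. HUWE1 had counts of 14325, 14487 and 30295 in MOCK against 14758, 12739 and 16873 in CYGB. The adaptor TRADD, which binds the TNF receptor and RIPK1, did not overlap between groups, with 8.93 ± 0.608 CPM in MOCK and 13.4 ± 3.16 CPM in CYGB (SD, n = 3 each), which is 0.59 on the log2 scale (standard error 0.21). It was named after its values were seen, and 11% of all genes likewise did not overlap. Its adjusted p was 0.963 by edgeR's quasi-likelihood test.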
